A study of Mus musculus with 6 samples.

Results

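Caspases are cysteine proteases made as inactive precursors, and the 8 genes described here are caspase genes and direct regulators of their products, taken by gene name from the 49592 genes of the deposited table. They are the initiator genes Casp8 and Casp9, the executioner gene Casp6, the inflammatory caspase genes Casp1 and Casp4, the pro-apoptotic gene Bid, and the inhibitor genes Xiap and Cflar. Poly(A) RNA was sequenced from myotubes of C2C12, a line of mouse muscle precursors whose cells fuse when serum is lowered, in 3 libraries of the TWEAK group and 3 of the untreated group. Both groups were grown in 10% serum and differentiated for 3 days in 2% serum. The TWEAK group then received TWEAK, a cytokine of the TNF superfamily, at 10 ng/ml for 12 h, and the untreated group received none. Both groups come from a single cell line, and the labels number the libraries as trials and do not say whether each was its own culture. The p-values therefore reflect only how far these libraries spread, which may be technical.

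In the extrinsic pathway, a ligand-bound death receptor recruits adaptors and the Casp8 product, which cleaves executioner caspases and the Bid protein. Cleaved Bid moves to mitochondria and promotes the release of cytochrome c, which assembles with the Apaf1 product and the Casp9 product into the apoptosome. The Cflar product, c-FLIP, resembles the Casp8 product but lacks its protease activity and holds it in check, and the Xiap product binds and inhibits the Casp9 product and executioner caspases. Inflammatory caspases instead cleave gasdermin D, whose fragment forms pores in the membrane. TWEAK signals through a TNF-family receptor and can activate NF-kB. Differentiating myoblasts are also known to use limited caspase activity without dying.

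The 3 members Casp4, Bid and Casp8 stood higher with TWEAK, and their promoters are shown here with that of Casp1, the gene next to Casp4 on chromosome 9, which did not pass the test. The sequences are from RefSeq (GRCm38.p6), run from 250 bases before to 50 bases after the annotated start, and are written on the strand of the gene. They lie at chr9:5308599-5308898 (plus strand) for Casp4, chr9:5298267-5298566 (plus) for Casp1, chr1:58802252-58802551 (plus) for Casp8 and chr6:120916775-120917074 (minus) for Bid. Capitals mark matches on either strand to GGGNNNNNCC, a loose form of the NF-kB binding consensus.
Casp4: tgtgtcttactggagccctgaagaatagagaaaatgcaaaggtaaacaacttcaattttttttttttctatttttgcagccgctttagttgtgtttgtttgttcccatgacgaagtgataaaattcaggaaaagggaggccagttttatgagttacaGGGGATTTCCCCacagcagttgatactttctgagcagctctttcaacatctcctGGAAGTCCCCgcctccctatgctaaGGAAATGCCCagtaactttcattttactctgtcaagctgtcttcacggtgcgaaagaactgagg
Casp1: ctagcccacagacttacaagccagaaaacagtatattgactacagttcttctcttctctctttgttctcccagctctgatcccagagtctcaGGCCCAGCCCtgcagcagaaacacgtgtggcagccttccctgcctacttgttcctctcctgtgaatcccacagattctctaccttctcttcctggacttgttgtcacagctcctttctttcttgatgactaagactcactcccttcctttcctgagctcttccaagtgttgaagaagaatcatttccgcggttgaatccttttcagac
Casp8: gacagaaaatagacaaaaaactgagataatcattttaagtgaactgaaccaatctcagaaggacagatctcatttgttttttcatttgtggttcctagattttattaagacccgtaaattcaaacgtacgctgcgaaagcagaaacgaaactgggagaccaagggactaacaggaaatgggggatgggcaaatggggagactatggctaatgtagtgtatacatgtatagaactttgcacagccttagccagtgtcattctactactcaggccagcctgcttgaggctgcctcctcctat
Bid: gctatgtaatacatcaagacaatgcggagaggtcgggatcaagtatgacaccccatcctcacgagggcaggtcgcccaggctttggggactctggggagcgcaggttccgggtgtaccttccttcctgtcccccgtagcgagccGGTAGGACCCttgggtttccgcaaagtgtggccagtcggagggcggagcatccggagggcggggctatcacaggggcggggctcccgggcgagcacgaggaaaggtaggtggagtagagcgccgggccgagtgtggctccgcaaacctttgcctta
The Casp4 window shown is the first of 2 entries and held 5 matches. Of these, 3 overlap in a run that starts 93 bases before the annotated start, where the position is written -93. The others lie at -39 and -14. In the second entry, chr9:5308610-5308909, the same sites lie at -104, -50 and -25. At least 1 match was present in 50.8% of the 32851 promoter windows of the table, and 5 or more in 3.16%. Casp1 had 1 match, at -158, Bid 1, at -106, and Casp8 0. The Casp8 and Cflar windows begin at 58802252 and 58711241 (GRCm38.p6), and the counted genes at 58834533 and 58750667 (GRCm39). The windows lie farther apart than the gene starts, so the Casp8 window may lie inside the counted gene. Its count describes that window only. The stricter NF-kB consensus, a subset of the same matches, was met in the Casp4 window by GGGGATTTCC at -93 and by GGGATTTCCC at -92, which overlap, and on the reverse strand by the site at -39. It was met in 8.46% of all windows, and in none of the Casp1, Casp8 and Bid windows. Of the other members, the first of 3 Xiap windows held 1 such match, and Cflar, Casp6 and Casp9 had 0. Matches to the loose form numbered 7 in that Xiap window, more than in the Casp4 window, and 0 in the other Xiap windows. They numbered 2 in Casp9, 2 in Casp6 and 1 in Cflar. All 8 members had an entry. A match is a description of the letters, and binding was not measured here.

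Transcripts of 3 of the 8 members rose with TWEAK (Casp4, Bid and Casp8), 1 fell (Xiap), and 4 did not pass (Casp9, Casp6, Casp1 and Cflar). Over all 12770 genes tested, 8.98% rose and 6.1% fell, which is 15.1% in either direction. These calls are from limma on log2(FPKM + 1), where FPKM is a fragment count scaled by gene length and library size, with p-values adjusted by Benjamini-Hochberg over all tested genes and a threshold of 0.05. A gene was tested if its FPKM averaged 0.5 or more over the libraries, and all 8 members passed that minimum. For Casp1, at a mean of 0.437 FPKM in the untreated libraries, the minimum was reached through the TWEAK libraries. The groups did not overlap for 4 members that were higher with TWEAK and 1 that was lower, against 20.0% and 15.9% of all tested genes, or 35.9% in either direction. With the trial number entered as a replicate block, the same 3 members rose and Xiap fell, where 27.9% of all tested genes passed (15.4% higher and 12.5% lower). On reads recovered from the FPKM and tested with limma-voom, an alternative chosen after seeing the data, these 3 rose and 0 fell, where 17.3% of all genes passed (11.4% higher and 5.87% lower). The median log2 fold change was 0.13 over the members and 0.01 over all tested genes.

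**Figure D1:**
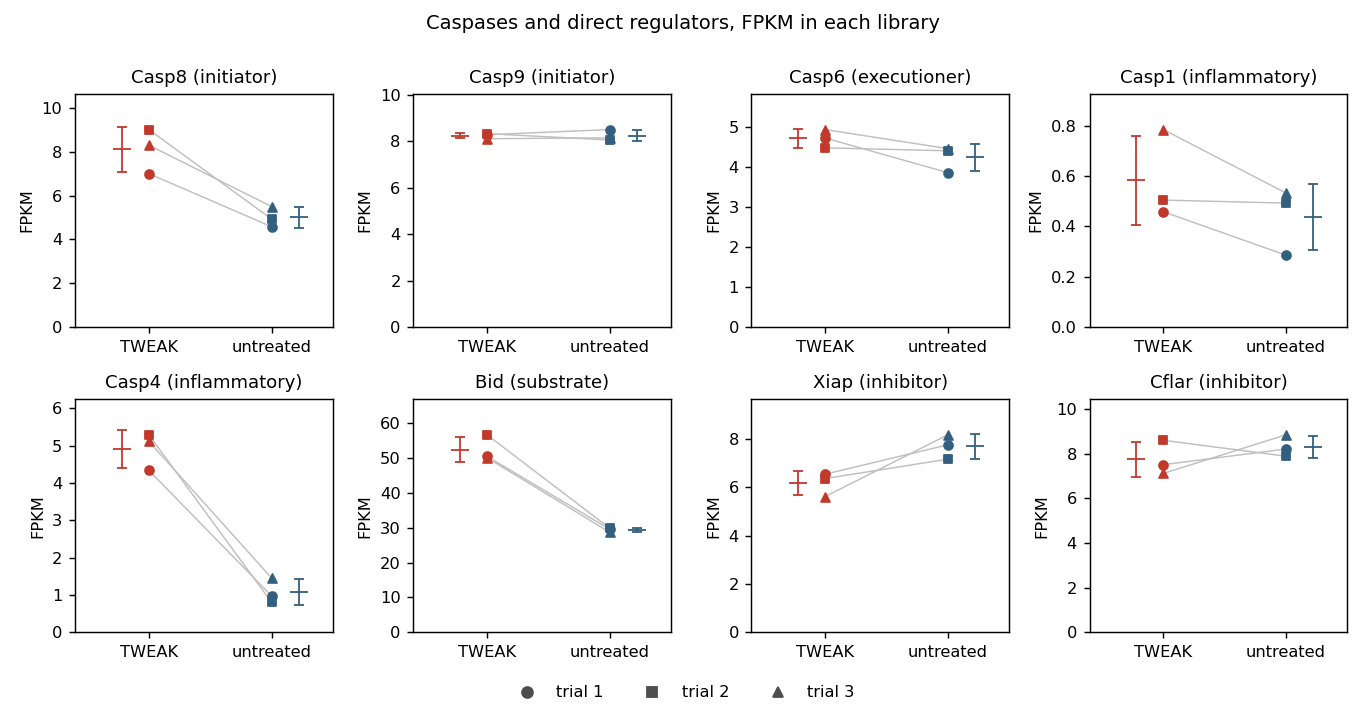
FPKM (vertical axis, from 0) of the 8 members in the TWEAK and untreated libraries. Points are libraries with a marker for each trial, grey lines join libraries of the same trial, and the bars beside them give the mean ± SD (n = 3 per group). Casp4, Bid, Casp8 and, by a narrow margin, Casp6 lie higher in all 3 TWEAK libraries than in any untreated library, and Xiap lies lower.

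The libraries held 29970058 to 40909230 reads, as recovered from the deposited values. All 8 myotube markers examined were above the expression minimum, and their summed level was 8781 to 9825 FPKM with TWEAK and 9597 to 10676 FPKM in untreated libraries. Of these 8, 2 fell with TWEAK and 0 rose by the limma test described above, against 6.1% and 8.98% of all tested genes. Myh3, the embryonic myosin heavy chain gene, averaged 615 FPKM with TWEAK and 1028 FPKM without (limma adjusted p = 0.00615), and Actn2, a Z-disc gene, 33.3 FPKM with TWEAK and 55.5 FPKM without (limma adjusted p = 0.00813). Myog, a differentiation factor gene, averaged 826 FPKM with TWEAK and 706 FPKM without (limma adjusted p = 0.221). Of 8 macrophage and leukocyte markers, which matter here because such cells are rich in inflammatory caspases, 1 (Cd68) was above the minimum and Adgre1, Tyrobp and Cd3e were at 0 in all 6 libraries. Their summed level was 1.36 to 1.66 FPKM with TWEAK and 1.46 to 1.51 FPKM without. The 3 undifferentiated myoblast markers (Pax7, Myf5 and Cd34) summed to 26.4 to 34.6 FPKM with TWEAK and 17.0 to 22.6 FPKM without. Among them Myf5 fell with TWEAK (limma adjusted p = 0.00622) and Cd34 rose (0.0107). Pax7 was lower with TWEAK and did not pass (limma adjusted p = 0.0704). The 4 adipocyte markers summed to 1.62 to 2.16 FPKM with TWEAK and 2.58 to 3.24 FPKM without, and Plin1 was at 0. Nearly all of that sum was Pparg, at 1.94 FPKM with TWEAK and 2.93 FPKM without (limma adjusted p = 0.0245). Adipoq and Fabp4 were near 0. The part of these markers in the results below was not tested. None of the 4 endothelial markers reached the minimum (0.0585 to 0.0796 FPKM in sum with TWEAK, 0.0671 to 0.104 without). In RNA from whole cultures, fewer cells of a type and less RNA per cell cannot be told apart.

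By level, Bid led in both groups, at 52.4 FPKM with TWEAK and 29.4 FPKM without, higher than 89.7% and 81.3% of the tested genes. With TWEAK it was followed by Casp9 (8.24), Casp8 (8.11) and Cflar (7.75 FPKM), whose ranges overlapped from each to the next, then by Xiap (6.18), Casp4 (4.92) and Casp6 (4.72 FPKM), of which the last pair overlapped. In untreated libraries, Cflar (8.32), Casp9 (8.24) and Xiap (7.71 FPKM) overlapped in the same way. They were followed, without overlap, by Casp8 (5.01), Casp6 (4.24), Casp4 (1.07) and Casp1 (0.437 FPKM). Casp1 was lowest in both groups.

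The initiator gene of the death receptor pathway rose and that of the mitochondrial pathway did not pass. Casp8 (ENSMUSG00000026029.15, GRCm39 chromosome 1, 58834533 to 58886662) was at 7.01, 9.02 and 8.31 FPKM in TWEAK replicates 1, 2 and 3, and at 4.58, 4.93 and 5.51 FPKM in untreated replicates 1, 2 and 3. Every TWEAK library lay above every untreated one, and the lowest TWEAK value belonged to the trial with the lowest untreated value. The means were 8.11 ± 1.02 and 5.01 ± 0.466 FPKM (SD, n = 3 each), a 1.62-fold difference (log2 fold change 0.60 with an SE of 0.10; limma adjusted p = 0.00529). Within trials 1, 2 and 3 the fold was 1.53, 1.83 and 1.51. The call held in all 6 fits that left out a library, with a highest limma adjusted p of 0.0293.

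Casp9 (ENSMUSG00000028914.14, chromosome 4, 141520923 to 141543287) was at 8.28, 8.33 and 8.11 FPKM in the TWEAK libraries and at 8.51, 8.06 and 8.15 FPKM in the untreated ones. The groups overlapped, and the coefficient of variation was 1.40% and 2.88%, the smallest of the members in the TWEAK group. The means were 8.24 ± 0.115 and 8.24 ± 0.237 FPKM (SD, n = 3 each), with a log2 fold change of 0.00 and a 95% interval of -0.15 to 0.15 (limma adjusted p = 0.996). The 3053 reads with TWEAK and 3417 without gave a ratio of 1.00 per size factor (95% exact binomial interval 0.954 to 1.05). Such intervals cover counting error only.

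Bid encodes a BH3-only protein that the Casp8 product cleaves. Bid (ENSMUSG00000004446.13, chromosome 6, 120868891 to 120893814) was at 50.5, 56.7 and 50.1 FPKM in TWEAK replicates 1, 2 and 3, and at 29.6, 29.8 and 28.7 FPKM in the untreated ones. The coefficient of variation was 7.05% with TWEAK and 2.07% in untreated libraries, and the groups were far apart. The means were 52.4 ± 3.70 and 29.4 ± 0.609 FPKM (SD, n = 3 each), a 1.79-fold difference (log2 fold change 0.81, SE 0.07, limma adjusted p = 0.000134), and the fold within trials was 1.71, 1.90 and 1.75. Bid overlaps Bcl2l13, a Bcl-2 family gene, over 913 bases. Of the 3542 stretches of 50 bases in the Bid transcripts of GENCODE M21, 580, or 16.4%, also lie in another gene, all of them in Bcl2l13 on the opposite strand. Because the sources used here do not give the use of strand in counting, reads of the shared part cannot be told apart. Bcl2l13 itself had 14.1 FPKM with TWEAK and 14.2 FPKM in untreated libraries (log2 fold change -0.02 with an SE of 0.07; limma adjusted p = 0.88).

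The executioner gene among the members did not pass. Casp6, whose product cleaves nuclear lamins, was at 4.73, 4.48 and 4.94 FPKM in the TWEAK libraries, against 3.86, 4.41 and 4.46 FPKM in the untreated ones. The lowest TWEAK value stood just above the highest untreated value. The means were 4.72 ± 0.229 and 4.24 ± 0.332 FPKM (SD, n = 3 each), with a log2 fold change of 0.13 and a 95% interval of -0.05 to 0.31 (ENSMUSG00000027997.10, chromosome 3, 129695074 to 129707752; limma adjusted p = 0.325). The log2 fold change of Casp6 in the authors' deposited table was 0.15 (adjusted p = 0.419).

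Of the inflammatory pair, Casp4 rose and Casp1 did not pass. Casp4 encodes the mouse caspase that senses lipopolysaccharide inside cells. Casp4 (ENSMUSG00000033538.14, chromosome 9, 5308828 to 5336783) was at 4.34, 5.30 and 5.12 FPKM in TWEAK replicates 1, 2 and 3, and at 0.970, 0.800 and 1.45 FPKM in the untreated ones. The lowest TWEAK value was well above the highest untreated value, and replicate 3 was the highest of the untreated libraries. The means were 4.92 ± 0.508 and 1.07 ± 0.339 FPKM (SD, n = 3 each), a 4.58-fold difference (log2 fold change 1.52 with an SE of 0.12; limma adjusted p = 0.000112). That log2 fold change was above those of 99.7% of the tested genes. The fold was 4.48, 6.62 and 3.52 within trials 1, 2 and 3, so it varied among trials more than that of Casp8 or Bid. On the reads, 891 with TWEAK and 223 without, the ratio was 4.48 (95% exact binomial interval 3.86 to 5.21), and log2(FPKM + 1) understates such changes at low level. The log2 fold change was 2.24 with limma-voom on those reads and 2.18 in the authors' deposited table.

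Casp1, whose product matures interleukin-1 beta, ends 1537 bases before Casp4 starts (ENSMUSG00000025888.7, chromosome 9, 5298508 to 5307290). It was at 0.459, 0.505 and 0.786 FPKM in the TWEAK libraries and at 0.286, 0.493 and 0.533 FPKM in the untreated ones. The groups overlapped, and each library held only 21 to 52 reads. The means were 0.583 ± 0.177 and 0.437 ± 0.133 FPKM (SD, n = 3 each; log2 fold change 0.14, 95% interval -0.12 to 0.39, limma adjusted p = 0.453). The pooled reads, 122 and 105, gave a ratio of 1.30 with an exact binomial interval of 0.995 to 1.71. Within trials 1, 2 and 3 the fold was 1.61, 1.02 and 1.47. No stretch of 50 bases in the Casp1 transcripts of GENCODE M21 was found in another gene, and for Casp4 it was 9 of 3752. The shares were 4.37% for Casp8 and 7.36% for Cflar, most with the same-strand genes Gm20257 and Gm9845, so part of their reads could be split or dropped in counting.

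Of the inhibitors, Xiap fell slightly and Cflar did not pass. Xiap (ENSMUSG00000025860.16, chromosome X, 41148556 to 41198533) was at 6.55, 6.37 and 5.62 FPKM in TWEAK replicates 1, 2 and 3, and at 7.77, 7.17 and 8.18 FPKM in the untreated ones. The groups did not overlap, and trial 3 held both the lowest TWEAK and the highest untreated value. The means were 6.18 ± 0.493 and 7.71 ± 0.509 FPKM (SD, n = 3 each), 1.25-fold lower with TWEAK (log2 fold change -0.28 with an SE of 0.08; limma adjusted p = 0.0496). This value is just under the threshold, and the call ended in 5 of the 6 fits that left out a library (limma adjusted p from 0.0696 to 0.141), the exception being the fit without TWEAK replicate 1 (0.049). It also ended with no filter on low values (limma adjusted p = 0.119) and on recovered reads (0.0535). In the authors' deposited table the log2 fold change of Xiap was -0.32 (adjusted p = 0.0199).

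Cflar (ENSMUSG00000026031.16, chromosome 1, 58750667 to 58798043) lies 36489 bases from Casp8 on the same chromosome. It was at 7.51, 8.61 and 7.12 FPKM in the TWEAK libraries, against 8.22, 7.89 and 8.86 FPKM in the untreated ones. The groups overlapped, and trial 2 was higher with TWEAK (1.09-fold) while trials 1 and 3 were lower (0.914-fold and 0.804-fold). The means were 7.75 ± 0.771 and 8.32 ± 0.490 FPKM (SD, n = 3 each; log2 fold change -0.09, 95% interval -0.28 to 0.10, limma adjusted p = 0.494).

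**Figure D2:**
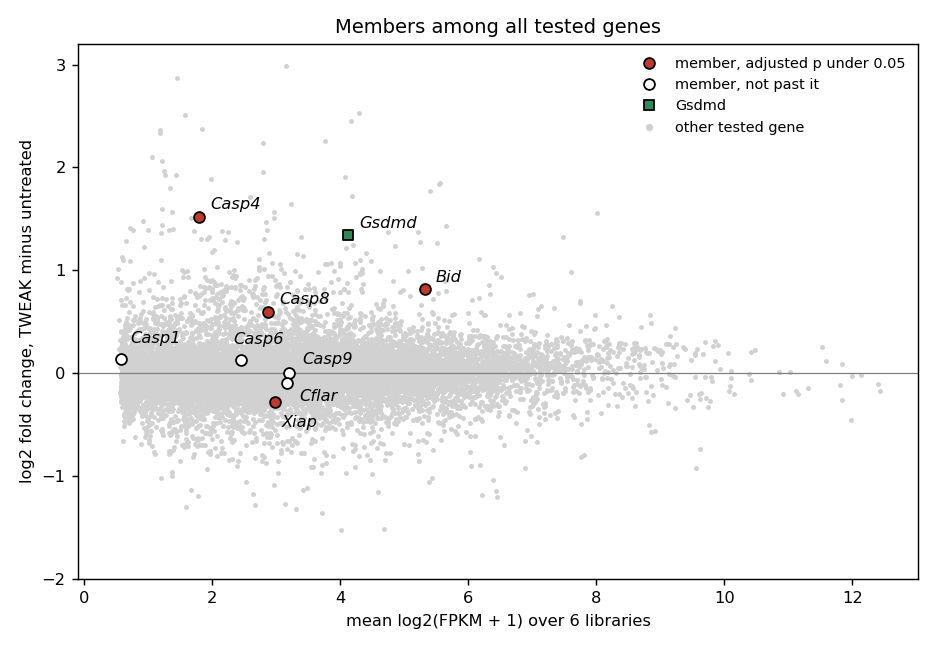
Log2 fold change (TWEAK minus untreated, of log2(FPKM + 1)) against mean log2(FPKM + 1) over the 6 libraries for all 12770 tested genes, of which 2 lie outside the plotted range. Red circles are members past an adjusted p of 0.05, white circles the other members, and the green square is Gsdmd. Casp4 and Gsdmd stand above most of the other genes, and Casp9 lies at 0.

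The balance between genes of opposing products was also described as a ratio of FPKM within each library, for 3 pairs. The ratios use the same FPKM values as the limma tests, so they are not independent of those calls. With 3 libraries against 3, the exact two-sided permutation test cannot give a p below 0.1, and all 3 ratios gave that smallest value, which stayed 0.1 after Benjamini-Hochberg adjustment over the 3. The Cflar to Casp8 ratio was 1.07, 0.954 and 0.857 in TWEAK replicates 1, 2 and 3, and 1.79, 1.60 and 1.61 in the untreated ones. All 3 TWEAK libraries were lower, at a mean of 0.961 ± 0.108 against 1.67 ± 0.109 (SD, n = 3 each), 1.74-fold lower in geometric mean. The Xiap to Casp9 ratio was 0.790, 0.764 and 0.693 with TWEAK and 0.913, 0.890 and 1.00 without. Those groups did not overlap either, at means of 0.749 ± 0.0506 and 0.935 ± 0.0603 (SD, n = 3 each). The Bid to Xiap ratio was 7.71, 8.90 and 8.92 with TWEAK and 3.81, 4.16 and 3.51 without, 2.23-fold higher in geometric mean. Cflar and Casp9 alone had log2 fold changes of -0.09 and 0.00. The Cflar to Casp8 ratio therefore mostly follows Casp8, and the Xiap to Casp9 ratio mostly follows Xiap. Bid was higher and Xiap lower in every TWEAK library than in any untreated one. The Bid to Xiap ratio thus had to separate the groups, and its p was fixed by those values, so it adds no further evidence. The share of other gene pairs whose ratios separate the groups was not computed. These are ratios of transcripts, and protein was not measured.

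**Figure D3:**
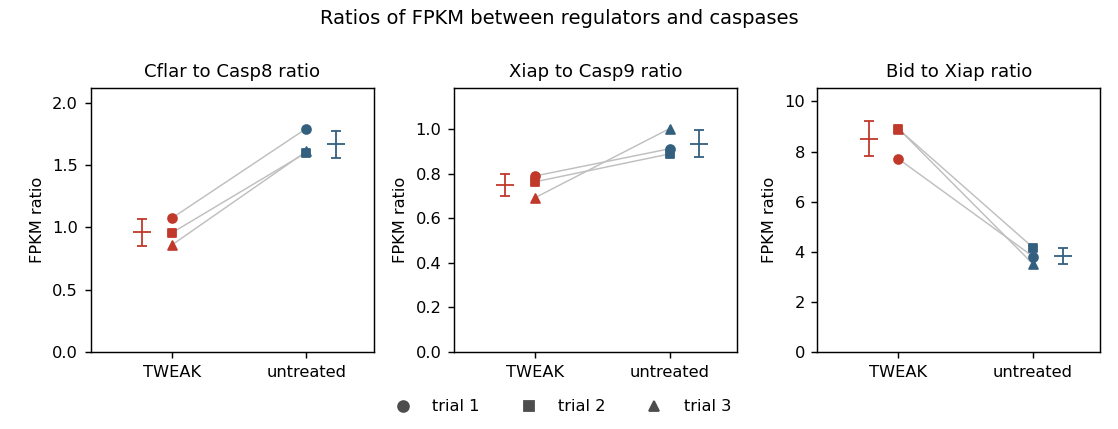
Ratios of FPKM within each library (vertical axis, from 0) for Cflar to Casp8, Xiap to Casp9 and Bid to Xiap, in TWEAK and untreated libraries. Points are libraries with a marker per trial, lines join libraries of the same trial, and bars give the mean ± SD (n = 3 per group). The Cflar to Casp8 and Xiap to Casp9 ratios are lower, and the Bid to Xiap ratio higher, in every TWEAK library than in any untreated one.

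Around the members, a list of 72 other genes of these pathways was examined. Of these, 48 were tested and 24 lay below the minimum. Of the tested genes, 13 rose and 1 fell by limma, at a median log2 fold change of 0.15, against 8.98% and 6.1% of all tested genes and a median of 0.01. Under the replicate block, 19 rose and 2 fell, against 15.4% and 12.5% of all tested genes in that fit. The shares of each fit also apply to the counts by role below. The 14 calls became 7 without TWEAK replicate 2 and 8 without untreated replicate 1. Of the 14 calls, 7 held in every fit that left out a library, those of Fas, Gsdmd, Il1b, Gbp2, Birc5, Htra2 and Bik. Both counts include Gbp2, which reached the minimum only through the TWEAK libraries, where it is high, so its call is not support.

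Upstream of Casp8, 2 of 5 tested genes of death receptors and their ligands rose and 0 fell, against 8.98% and 6.1% of all tested genes. With the block 3 rose, against 15.4% of all tested genes, Tnfrsf1a being the addition. Fas, the receptor of Fas ligand, was at 11.4, 15.4 and 13.6 FPKM with TWEAK and at 6.92, 8.46 and 8.74 FPKM without, a 1.67-fold difference (limma adjusted p = 0.00626). Tnfrsf10b, the mouse TRAIL receptor gene, was 1.36-fold higher (limma adjusted p = 0.0363, and up to 0.129 without single libraries). The ligand gene Fasl was listed at 0 in all 6 libraries. Of 7 tested adaptor and kinase genes, 3 rose and 0 fell. Tradd, an adaptor of TNF receptors, was 1.27-fold higher (limma adjusted p = 0.0201), Mlkl, the effector of necroptosis, 1.45-fold (0.0178) and Pidd1, a scaffold that activates the Casp2 product, 2.20-fold (0.0197). Each of these 3 calls ended without some single libraries, at a highest limma adjusted p of 0.0791, 0.0754 and 0.0668. Fadd, which links Fas to the Casp8 product, was at 2.99 ± 0.273 FPKM with TWEAK and 2.43 ± 0.154 FPKM without (SD, n = 3 each; limma adjusted p = 0.119).

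Casp12, an endoplasmic reticulum caspase gene that starts 8646 bases beyond Casp4, was at 19.4 ± 0.819 FPKM against 14.0 ± 2.56 FPKM (SD, n = 3 each; limma adjusted p = 0.0248). The Casp12 call ended when TWEAK replicate 2, TWEAK replicate 3, untreated replicate 1 or untreated replicate 2 was left out (limma adjusted p up to 0.0784).

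On the inflammatory branch, 2 of 3 tested substrate genes rose and 0 fell, against 8.98% and 6.1% of all tested genes. Most sensor genes were near 0. Gsdmd, which encodes the pore-forming substrate gasdermin D, was at 25.9, 28.1 and 26.7 FPKM with TWEAK and at 9.33, 10.3 and 10.4 FPKM without. The groups were far apart, with a 2.68-fold difference (log2 fold change 1.34, SE 0.07, limma adjusted p = 1.29e-05). Il1b, the interleukin-1 beta gene, was at 1.60 ± 0.0866 FPKM against 0.725 ± 0.0887 FPKM (SD, n = 3 each; limma adjusted p = 0.00261). Il18, another cytokine gene, averaged 2.90 FPKM with TWEAK and 3.18 FPKM in untreated libraries (limma adjusted p = 0.397). Gbp2, a guanylate-binding protein gene, was at 1.33 ± 0.275 FPKM with TWEAK and 0.259 ± 0.0364 FPKM without (SD, n = 3 each; limma adjusted p = 0.00094). It reached the minimum only through the TWEAK libraries, and it was the 1 tested gene of 4 on that list. Gbp3 was below the minimum, with 183 reads with TWEAK and 15 without. Of 11 inflammasome sensor and adaptor genes, 1 was above the minimum, Nek7, at 22.2 FPKM with TWEAK and 26.6 FPKM without (limma adjusted p = 0.111). Under the block Nek7 fell (0.023). Of the rest, 8, among them Nlrp3 and Pycard, the gene of the adaptor ASC, had at most 11 reads in either group. Pycard had 5 reads with TWEAK and 3 without. Aim2, a DNA sensor gene, had 107 reads with TWEAK and 115 without.

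At the mitochondrial step, neither of the 2 apoptosome genes passed. Apaf1 was at 3.31 ± 0.683 FPKM with TWEAK and 3.34 ± 0.0705 FPKM without (SD, n = 3 each; limma adjusted p = 0.916). Of 3 tested effector genes, Bax, Bak1 and Bok, 0 passed (2 rose with the replicate block), and of 4 tested Bcl-2 family guardian genes 0 passed (0 with the block). In the authors' deposited table the log2 fold change was 0.34 for the guardian gene Bcl2 (adjusted p = 0.0179) and -0.15 for Bcl2l2 (0.0432). The adjusted p there was 0.501 for Bcl2l1 and 0.669 for Mcl1. In that table, whose fit included other libraries, 20.6% of genes passed. Bcl2l1, the gene of the survival protein Bcl-xL, averaged 37.1 FPKM with TWEAK and 34.7 FPKM in untreated libraries (limma adjusted p = 0.359). Of 6 tested BH3-only genes, 1 rose (2 with the block, Bbc3 added) and 1 fell (also 1 with the block). Bik, which encodes a pro-apoptotic member, was at 2.15 ± 0.209 FPKM against 0.762 ± 0.120 FPKM (SD, n = 3 each; limma adjusted p = 0.000632). Bcl2l11, the gene of Bim, was 1.29-fold lower with TWEAK (limma adjusted p = 0.049). The Bcl2l11 call ended in all 6 fits that left out a library (limma adjusted p from 0.0634 to 0.145) and was 0.0201 with the replicate block. Of 6 executioner substrate genes such as Parp1 and Lmna, 0 passed (1 rose with the block).

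Among 3 tested IAP family genes other than Xiap, 1 rose. Birc5, the gene of survivin, which also acts in cell division, was at 5.64 ± 1.10 FPKM with TWEAK and 2.72 ± 0.676 FPKM without (SD, n = 3 each; limma adjusted p = 0.00642). Birc2, the gene of cIAP1, was at 12.3 ± 0.576 FPKM against 10.3 ± 0.862 FPKM (SD, n = 3 each; limma adjusted p = 0.0652). The replicate block brought it under the threshold (0.0208). Birc3, the gene of cIAP2, lay below the minimum at 0.836, 0.821 and 0.577 FPKM with TWEAK and 0.0727, 0.0209 and 0.0254 FPKM without. Of the genes whose products oppose IAPs, Htra2, a mitochondrial protease gene, was at 47.9 ± 3.66 FPKM with TWEAK and 34.0 ± 2.37 FPKM without (SD, n = 3 each; limma adjusted p = 0.0049). Diablo and Xaf1 did not pass.

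**Figure D4:**
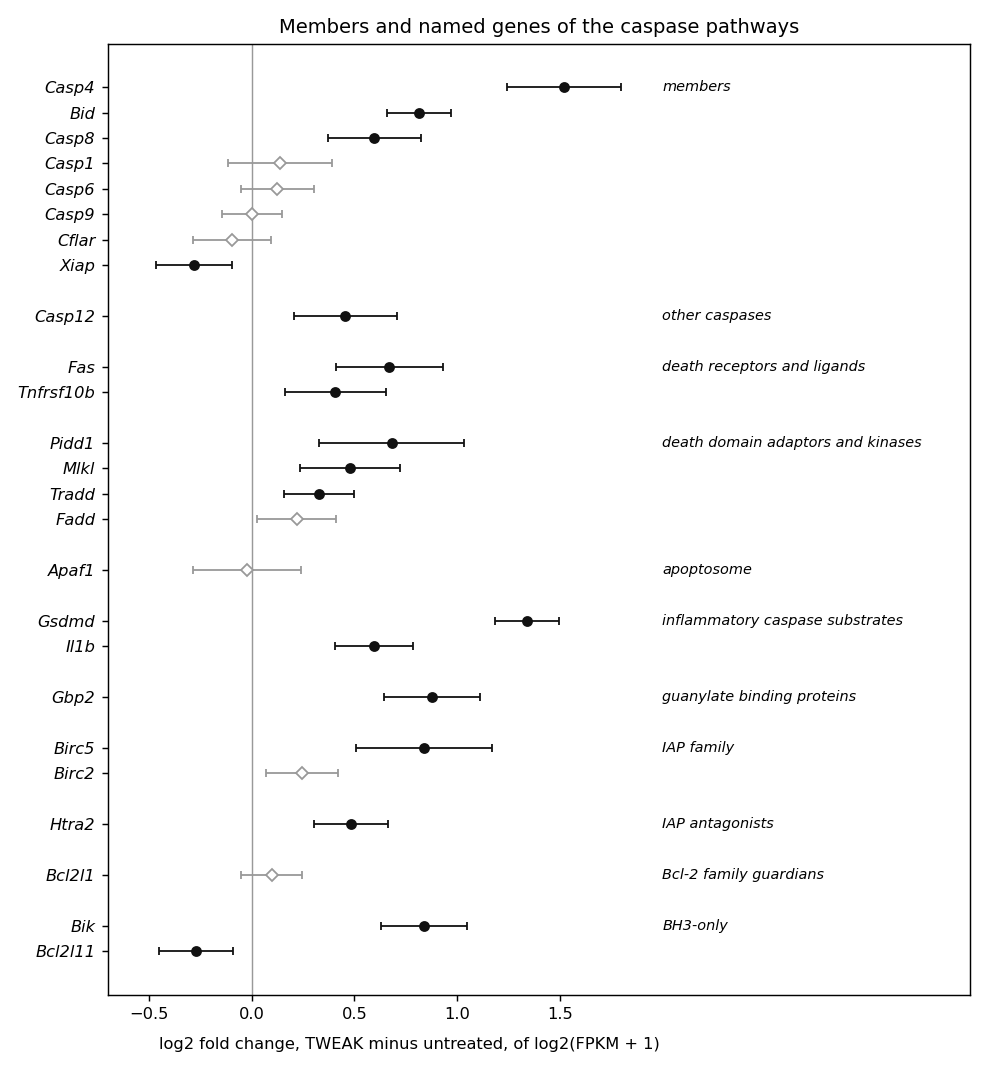
Log2 fold change (TWEAK minus untreated, of log2(FPKM + 1)) with its 95% interval from limma for the 8 members and genes of the pathways named in the text that were tested, by role. Filled black circles passed an adjusted p of 0.05 and open grey diamonds did not. Casp4, at 1.52, and Gsdmd, at 1.34, lie farthest to the right, and Xiap and Bcl2l11 are the filled circles left of 0.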

How the data were processed

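Per the submitters' processing notes, the authors' tools were STAR 2.6.0c, DESeq2 1.22.2, HTSeq 0.6.1p2 and Trim Galore 0.5.0, and the build was GRCm39. Settings, annotation release and use of strand: not given in the sources used here. Per the file headers, the deposited table gives FPKM for each library. It also holds the authors' own comparison: a mean normalized count (a signal), a score (its test statistic), p-values before and after adjustment, and a log2 fold change with standard error. For 2337 genes that mean exceeds 0 although all 6 libraries list 0, so their fit included other libraries, not analysed here.

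Whole reads were recovered from the FPKM by finding each library's and gene's common unit: each of the 126386 nonzero values was whole (relative tolerance 1e-06). In 265 of 12770 tested genes, none a member, a common factor was chosen from the deposited mean, so totals are approximate. The main test was limma-trend (limma 3.58.1, R 4.3.3) on log2(FPKM + 1), as designed for FPKM, with group as its only term, a minimum mean of 0.5 FPKM, two-sided p-values and Benjamini-Hochberg adjustment at 0.05. Fold changes are TWEAK minus untreated on that scale, which understates changes of low genes, and folds are ratios of mean FPKM. Scripts for limma and read recovery were tested on simulated data. Python 3.11.15 with scipy 1.17.1 gave exact tests and intervals. Promoter coordinates are GRCm38.p6 and gene coordinates GRCm39; neither was converted.

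The trial numbers were taken to pair libraries from the data: deviations from group means correlated at 0.473, 0.218 and 0.434 between the 2 libraries of trials 1, 2 and 3, each above 0.1. Deviations within a group sum to 0, so this is weak evidence. Named genes were all members, up to 3 called genes per role and direction, and Casp12, Gsdmd, Birc2, Birc3, Apaf1, Fadd and Bcl2l1, plus the 3 genes most correlated with Casp4; other genes named in the text were chosen after their values were seen. Results of some genes that the rule names are not reported here. Members, lists and tests were chosen with earlier results of these data known. Irgb10, on the list, was not matched by name. Alternatives changed the pseudocount, filter, scaling, block, unit and libraries.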

Additional observations from a re-analysis of the deposited data

How the results depend on the processing

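The rises of Casp4, Bid and Casp8 kept their direction and side of the threshold under all 12 alternatives, and the members that passed numbered 3 or 4. Casp9, at a log2 fold change of 0.00, fell below 0 with an equal upper quartile (-0.0274), and spanned -0.0132 to 0.0217 without single libraries. Apaf1 spanned -0.0958 to 0.1162 without single libraries. Of 12770 tested genes, 1926 passed, against 801 with no filter on low values, 3563 with the replicate block and 844 to 2101 without single libraries. Of the pathway list, 14 passed, 8 with no filter and 7 to 13 without single libraries. The cause was not tested, though more genes were tested without the filter and fewer libraries were fitted without single ones. With the replicate block, the calls of the members did not change, and the log2 differences of the 3 ratios (-0.80, -0.32 and 1.15) are equal with and without it by construction, since every trial holds 1 library of each group. Casp1 was left out with a minimum mean of 1 FPKM, and without TWEAK replicate 3 it fell below 0.5. Casp1 rests on few reads, and the minimum left Gbp3 and Birc3 out of the test.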

Other observations

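Among 10791 tested protein-coding genes with a mean log2(FPKM + 1) of at least 1, the 3 whose pattern was most like that of Casp4 over the 6 libraries were Rnf150, Ccl7 and Bdkrb1 (Pearson's r of 0.999, 0.995 and 0.995). The points share their libraries and the treatment, which separates the groups for all 4 genes, so these values are a description. Rnf150, a RING finger gene, was at 9.40, 10.0 and 10.2 FPKM in TWEAK replicates 1, 2 and 3, and at 4.78, 4.27 and 5.43 FPKM in the untreated ones. Bdkrb1, the bradykinin B1 receptor gene, was at 4.35, 5.40 and 5.74 FPKM with TWEAK and at 1.31, 1.32 and 1.73 FPKM without. Ccl7, a chemokine gene, was at 72.2 ± 17.9 FPKM and 6.80 ± 1.43 FPKM (SD, n = 3 each).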
